A study of Mus musculus with 18 samples.

Results

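The genes described are 8 regulators of mRNA stability and of cell proliferation: the zinc finger genes Zfp36, Zfp36l1 and Zfp36l2, the endoribonuclease gene Zc3h12a, and the BTG and TOB genes Btg1, Btg2, Tob1 and Tob2. Their probe sets were taken from the array table by the gene symbol of the platform annotation, where that annotation gave 1 symbol only. The table held 20 such probe sets, of which 19 passed the filter on low signal, and all 8 genes were among the 11104 genes tested. The exception was 1440844_at of Tob1. It was above the filter level on 3 arrays. Gene symbols stand for the 1 probe set per gene with the highest mean signal, and other probe sets are named by their identifiers.

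RNA was measured on 18 Affymetrix Mouse Genome 430 2.0 arrays, in CD23+ B lymphocytes of the spleen of C57BL/6J mice. CD23 is a low-affinity receptor for IgE that follicular B cells carry. PF-303, an inhibitor of the kinase BTK, or vehicle was injected, then 2 h later anti-IgD, which crosslinks the B cell receptor, or PBS, and B cells were taken after a further 2 h. There were 5 samples of anti-IgD after PF-303, 4 of anti-IgD after vehicle, 5 of PBS after PF-303 and 4 of PBS after vehicle. All mice were of 1 strain with no genetic change named, and the labels used here give no age and do not say that each sample was a separate mouse. The p-values rest on sample-to-sample spread alone, part of which may be technical.

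ZFP36 proteins bind AU-rich elements in mRNAs and recruit the CCR4-NOT complex, which shortens the poly(A) tail before the mRNA is degraded. ZC3H12A, also called Regnase-1, cuts mRNAs at stem-loop structures, and BTG and TOB proteins bind the deadenylase subunits of CCR4-NOT and restrain proliferation. In mice, ZFP36L1 and ZFP36L2 are known for their part in the quiescence that B cell precursors need, and BTG1 and BTG2 for the quiescence of T cells.

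Sequences upstream of the transcription start were matched by symbol for 7 of the 8 genes and are credited to RefSeq (GRCm38.p6). Zfp36 and Btg2 were taken as members known as early response genes, without a claim that the others are not. Zc3h12a was taken as the gene lowered by PF-303 with and without anti-IgD, and Zfp36l1 and Btg1 because their probe sets diverged. The sequences of these 5 genes are shown, each as the 250 bases before the start on the gene's own strand. They lie at chr7:28379229-28379478 (minus strand, Zfp36), chr12:80113014-80113263 (minus strand, Zfp36l1), chr4:125127882-125128131 (minus strand, Zc3h12a), chr10:96616751-96617000 (plus strand, Btg1) and chr1:134079156-134079405 (minus strand, Btg2). Capitals mark matches on either strand to the motifs searched, apart from the SP1 motif, which is left in lower case.
Zfp36: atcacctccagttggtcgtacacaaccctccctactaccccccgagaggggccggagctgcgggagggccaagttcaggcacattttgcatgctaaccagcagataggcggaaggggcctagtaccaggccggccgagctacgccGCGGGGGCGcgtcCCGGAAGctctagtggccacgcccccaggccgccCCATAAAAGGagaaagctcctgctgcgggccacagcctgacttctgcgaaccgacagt
Zfp36l1: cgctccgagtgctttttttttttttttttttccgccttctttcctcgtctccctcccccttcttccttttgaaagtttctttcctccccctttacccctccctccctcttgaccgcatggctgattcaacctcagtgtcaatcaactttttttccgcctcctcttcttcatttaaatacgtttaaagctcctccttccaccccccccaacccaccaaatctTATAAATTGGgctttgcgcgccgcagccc
Zc3h12a: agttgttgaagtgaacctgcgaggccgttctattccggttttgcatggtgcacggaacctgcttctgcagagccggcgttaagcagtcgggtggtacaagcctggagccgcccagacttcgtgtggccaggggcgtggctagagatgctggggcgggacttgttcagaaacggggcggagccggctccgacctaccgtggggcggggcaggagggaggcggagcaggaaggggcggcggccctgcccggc
Btg1: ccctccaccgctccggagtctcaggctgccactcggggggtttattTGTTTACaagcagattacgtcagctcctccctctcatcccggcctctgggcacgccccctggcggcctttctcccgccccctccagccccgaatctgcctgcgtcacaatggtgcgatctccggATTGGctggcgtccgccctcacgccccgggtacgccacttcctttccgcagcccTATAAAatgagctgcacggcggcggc
Btg2: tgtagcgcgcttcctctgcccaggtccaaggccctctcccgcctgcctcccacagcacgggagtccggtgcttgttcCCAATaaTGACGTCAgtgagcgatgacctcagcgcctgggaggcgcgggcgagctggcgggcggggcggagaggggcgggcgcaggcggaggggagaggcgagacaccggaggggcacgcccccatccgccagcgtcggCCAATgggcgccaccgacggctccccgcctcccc

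The motifs searched, on both strands, were the cAMP response element TGACGTCA, the FOXO motif TGTTTAC, the EGR motifs GCGGGGGCG and GCGTGGGCG, the AP-1 motif TGAGTCA, the TATA box TATAAA, the CCAAT box CCAAT, the SP1 motif GGGCGG, the ETS motif CCGGAAG, and the CArG box and the NF-kB site by their consensus. Zfp36 held the first EGR motif 105 bases upstream of the start, the ETS motif 92 bases upstream and a CArG box 58 bases upstream, whose first base is also the last of an SP1 motif. Among 32851 promoter windows of this length, 2.57% held that EGR motif, 6.91% the ETS motif and 1.47% a CArG box. Btg2 held the cAMP response element 166 bases upstream (1.55% of windows) and CCAAT boxes 173 and 34 bases upstream (33.8%). Btg1 held the FOXO motif 204 bases upstream (3.17%), a CCAAT box 80 bases upstream and a TATA box 26 bases upstream (12.4%). Zfp36l1 held a TATA box 29 bases upstream that shares its last base with a CCAAT box. Zc3h12a held 5 SP1 motifs (32.7%) and none of the others, while Btg2 held 3 SP1 motifs, Btg1 2 and Zfp36 1. Each percentage is the share of windows with at least 1 match. Each match describes letters of the window and not a binding site.

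On the arrays, each value is a MAS5 signal, an intensity on a linear scale after every array was scaled to the same trimmed mean. Fold changes are differences of log2(signal + 16), so those of low signals are smaller than the ratio of the signals. A gene was called changed at an adjusted p below 0.05 in limma, with Benjamini-Hochberg adjustment over all genes tested. In bulk RNA, fewer cells of a type and less RNA per cell cannot be told apart. Replicate 4 of PBS with vehicle and replicate 1 of anti-IgD with PF-303 had Gapdh 3'/5' control ratios of 1.11 or more, against 0.698 to 0.826 on the other 16 arrays. Spike-in signal was over 2 times that of the median array on 6 arrays, those 2 included, and none of the 6 was of anti-IgD with vehicle. Of the B cell markers, 8 of 10 had a probe set with 1 symbol, and 8 passed the filter. Their summed signal was 16567 to 20124 with anti-IgD and vehicle, against 23265 to 41257 with PBS and vehicle, and in the PF-303 groups 23532 to 33060 with anti-IgD and 23343 to 38733 with PBS. Summed signals of 8 T cell markers were 61.7 to 159 on all arrays. Those of 8 macrophage and monocyte markers were 878 to 3250, with overlap between all groups. Those of neutrophil markers were 88.0 to 858 and of erythroid markers 39.2 to 539. Of 4 plasma cell markers, Jchain averaged 2086, Sdc1 53.7, Prdm1 52.8 and Tnfrsf17, which did not pass the filter, 8.34. The part of these in the results below was not tested.

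Anti-IgD in vehicle-treated mice was followed by lower RNA of Zfp36l2, Btg2 and Tob1 and higher RNA of Tob2. Of the 8 genes, 1 rose and 3 fell, where 17.4% of all genes tested rose and 30.6% fell. Over all genes the median was -0.13 on the log2 scale, and over the 8 genes 0.00. The ranges of the 2 groups did not overlap for 5 of the 8 genes, as for 42.3% of all genes. Shifting every array to 1 median moved the all-gene median to -0.02, so values relative to that median are given too. With the 6 arrays of high spike-in signal left out, Zfp36 (0.43, adjusted p = 0.000845) and Zfp36l1 (0.48, adjusted p = 0.00318 in limma) joined the genes that rose. With the 2 of high Gapdh ratio left out, Zfp36 did (0.33, adjusted p = 0.0295 in limma).

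Zfp36l2 encodes the AU-rich element binder that maintains quiescence in B cell precursors together with ZFP36L1. Its signals were 1051, 1019, 1253 and 926 with anti-IgD and vehicle, against 1492, 1486, 1777 and 2014 with PBS and vehicle. Every stimulated array was below every PBS array, and the log2 fold change was -0.66 ± 0.12 (SE, n = 4 and 4; adjusted p = 6.05e-05 in limma), or -0.53 relative to the median of all genes. With PF-303 the signals were 1229, 1155, 948, 1275 and 1101 after anti-IgD, against 1573, 1659.9, 1583, 1707 and 1322 after PBS. The groups again did not overlap, and the fold change was -0.46 ± 0.10 (n = 5 and 5; adjusted p = 0.00146 in limma). Averaging the gene over its 3 probe sets, 2 of them dim, ended this call (-0.17, adjusted p = 0.206). The difference between the responses with PF-303 and with vehicle was 0.21 ± 0.16 on the log2 scale (adjusted p = 0.453), with a 95% interval from -0.12 to 0.53. PF-303 itself gave 0.10 ± 0.11 in stimulated cells and -0.10 ± 0.11 in PBS cells (adjusted p = 0.527 and 0.803 in limma). The other probe sets of the gene, 1451034_at and 1439054_at, had group means of 14.6 to 27.7, near the filter level of 15.2, and were not called in any comparison.

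Btg2 encodes an antiproliferative cofactor of deadenylation and is a known target of p53. Its signals were 1114, 1049, 1294 and 1131 with anti-IgD and vehicle, against 1545, 1512, 1938 and 1379 with PBS and vehicle. With PF-303 they were 967, 939, 1107, 1112 and 1097 after anti-IgD, against 1661, 1628, 1771, 2013 and 1572 after PBS. No stimulated array reached any PBS array of the same treatment. The log2 fold change was -0.46 ± 0.10 with vehicle (adjusted p = 0.000837) and -0.72 ± 0.09 with PF-303 (adjusted p = 2.5e-06 in limma). The interaction, -0.26 ± 0.14, was not called (adjusted p = 0.274, 95% interval from -0.55 to 0.03). Its other probe set, 1448272_at, fell with anti-IgD by 0.54 ± 0.10 on the log2 scale with vehicle and by 0.56 ± 0.09 with PF-303. Over the 18 arrays the signals of both probe sets had a Pearson r of 0.83 as a description. PF-303 gave values for Btg2 of -0.13 ± 0.10 with anti-IgD and 0.12 ± 0.10 with PBS, neither called.

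Tob1 encodes a BTG family protein that is known as a brake on T cell activation. Its signals were 180.0, 246, 221 and 214 with anti-IgD and vehicle, against 352, 311, 252 and 313 with PBS and vehicle. With PF-303 they were 320.0, 292, 263, 168 and 300.3 after anti-IgD, against 348, 369, 310.5, 398 and 376 after PBS. The vehicle groups did not overlap, whereas with PF-303 only the highest stimulated array passed the lowest PBS array. Tob1 fell with anti-IgD by 0.48 ± 0.14 with vehicle (adjusted p = 0.0089) and by 0.43 ± 0.13 with PF-303 (adjusted p = 0.0129 in limma) on the log2 scale. PF-303 against vehicle gave 0.28 ± 0.14 in stimulated cells (adjusted p = 0.137), a value that was 0.43 and passed the test without replicate 4 of anti-IgD with PF-303 (adjusted p = 0.00388).

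Tob2, the closest relative of Tob1 in the family, moved the other way. Its signals were 1311, 1309, 1126 and 1468 with anti-IgD and vehicle, against 841, 768, 843 and 699.5 with PBS and vehicle, with no overlap. The log2 fold change was 0.71 ± 0.11 (adjusted p = 1.43e-05 in limma), and 0.84 relative to the median of all genes. With PF-303 the signals were 1149, 1012, 1093, 808 and 1158 after anti-IgD, against 735, 735, 917, 717 and 717 after PBS, so that 4 of 5 stimulated arrays lay above all PBS arrays. The fold change there was 0.44 ± 0.10 (adjusted p = 0.00145). The probe sets 1448666_s_at, 1417309_at and 1417310_at also rose with anti-IgD in vehicle-treated mice, by 0.71 ± 0.14, 0.84 ± 0.17 and 0.46 ± 0.14. The platform assigns all of these, and the probe set used for Tob2, to the same target sequence. The call of 1417310_at was lost with the 6 arrays of high spike-in signal left out (0.29, adjusted p = 0.102). In PF-303-treated mice 1448666_s_at (0.51 ± 0.13) and 1417309_at (0.82 ± 0.15) rose, and 1417310_at had 0.24 ± 0.12 (adjusted p = 0.163). The probe set 1431776_at, which the platform assigns to another target sequence, stayed at group means of 19.96 to 27.5 and was not called. Between the PF-303 and vehicle groups given anti-IgD, Tob2 differed by -0.32 ± 0.11 (adjusted p = 0.024 in limma). That call was lost without any 1 of replicate 4 of anti-IgD with PF-303 or replicates 1, 2 or 5 of anti-IgD with vehicle, with values from -0.32 to -0.23 and adjusted p from 0.0507 to 0.0941. The interaction was -0.28 ± 0.15 (adjusted p = 0.267, 95% interval from -0.58 to 0.03). PF-303 in stimulated cells gave -0.21 ± 0.14 for 1448666_s_at, -0.34 ± 0.16 for 1417309_at, -0.22 ± 0.13 for 1417310_at and 0.03 ± 0.17 for 1431776_at. None of these was called (adjusted p from 0.118 to 0.924 in limma). With the 6 arrays of high spike-in signal left out, 1417309_at was called lower (-0.54, adjusted p = 0.00103). It was also called with the spike-in signal as a covariate (-0.58, adjusted p = 0.000226) and with replicate number as a block (-0.41, adjusted p = 0.0203). The same held without the 2 arrays of high Gapdh ratio (-0.44) or without replicate 1 of anti-IgD with PF-303 (-0.44). The covariate also gave a call for 1448666_s_at (-0.36, adjusted p = 0.024). The remaining settings called neither.

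**Figure D1:**
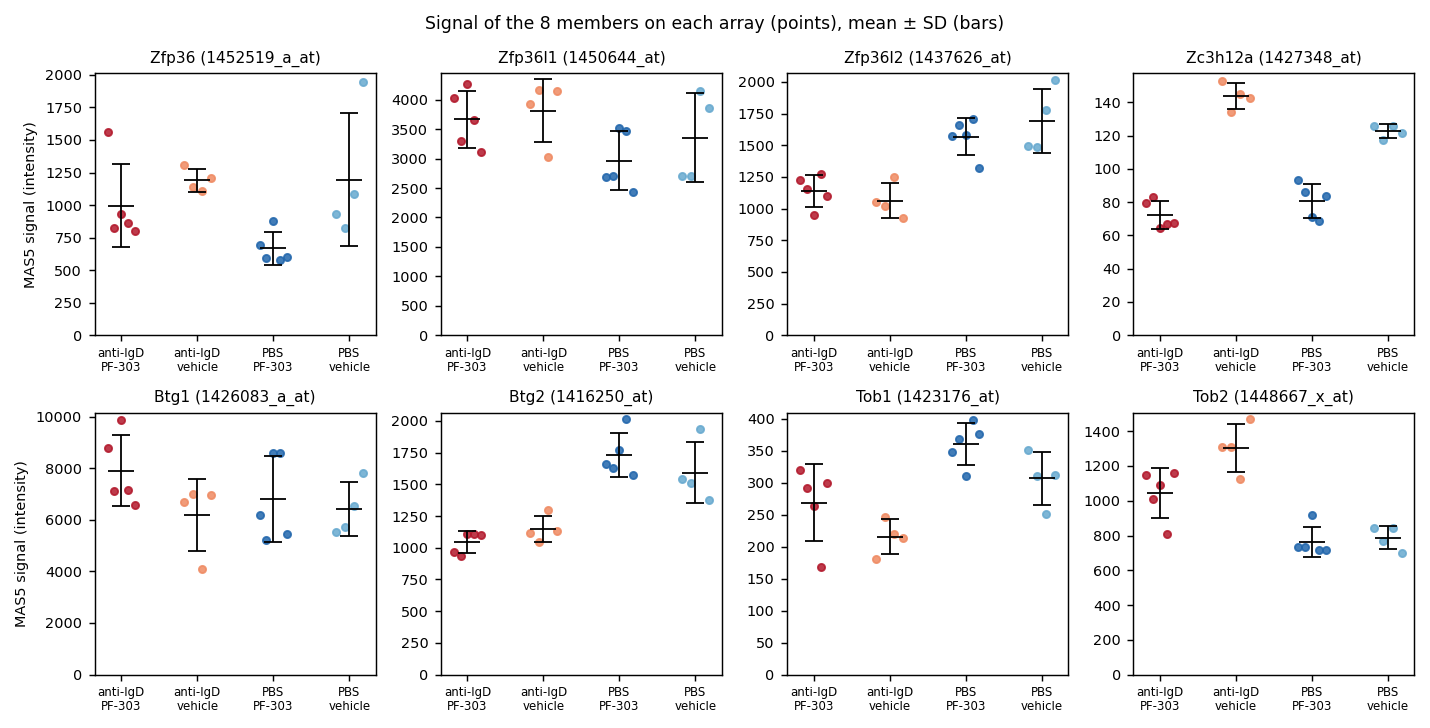
MAS5 signal (intensity, linear axis from 0) of the probe set used for each of the 8 genes, 1 point per array, with the mean ± SD of each group as bars; n is 5 for each PF-303 group and 4 for each vehicle group. Zfp36l2, Btg2 and Tob1 are lower and Tob2 higher after anti-IgD than after PBS, and Zc3h12a is lower with PF-303 than with vehicle, at 72.2 against 144 after anti-IgD and 80.6 against 123 after PBS.

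PF-303 was accompanied by lower Zc3h12a RNA both in stimulated and in PBS cells. Of the 8 genes, 0 rose and 2 fell with PF-303 in anti-IgD-treated mice, where 19.8% of all genes rose and 10.4% fell. In PBS-treated mice 0 rose and 1 fell, where 0.0720% of all genes rose and 0.675% fell. The ranges did not overlap for 1 of the 8 genes in each pair, as for 26.8% of all genes with anti-IgD and 4.11% with PBS. At an unadjusted p under 0.05, the genes that were lower in PBS-treated mice were Zc3h12a and Zfp36, and none was higher, where 5.82% of all genes were lower and 4.77% higher at that threshold.

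Zc3h12a encodes the endoribonuclease that degrades mRNAs of cytokines and of activation factors such as Rel. Its signals were 79.2, 83.0, 64.5, 66.7 and 67.7 with anti-IgD and PF-303, against 153, 134, 145 and 143 with anti-IgD and vehicle. With PBS they were 93.3, 86.1, 71.1, 68.9 and 83.7 with PF-303, against 126, 117, 126 and 121 with vehicle. In both pairs every PF-303 array was below every vehicle array, and the vehicle mean was 1.99 times the PF-303 mean with anti-IgD and 1.52 times with PBS. The log2 fold change was -0.86 ± 0.09 in stimulated cells (adjusted p = 6.65e-07) and -0.53 ± 0.09 in PBS cells (adjusted p = 0.0059 in limma). In PBS cells the call was lost with the 6 arrays of high spike-in signal left out (-0.41, adjusted p = 0.214), which leaves 3 arrays of PBS with PF-303 and 2 of PBS with vehicle. Without the 2 arrays of high Gapdh ratio it was -0.53 (adjusted p = 0.0125). Averaging the gene with its dim second probe set also ended it (-0.23, adjusted p = 0.495).

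Anti-IgD gave Zc3h12a 0.20 ± 0.10 with vehicle (adjusted p = 0.101), a value that was 0.31 and called after shifting arrays to 1 median (adjusted p = 0.0119) or after quantile normalization (adjusted p = 0.0103). In PF-303-treated mice anti-IgD gave -0.13 ± 0.09 (adjusted p = 0.293). The interaction was -0.33 ± 0.13 (adjusted p = 0.124, 95% interval from -0.61 to -0.05). Stimulated cells of PF-303-treated mice were also below resting cells of vehicle-treated mice, by 0.66 ± 0.09 on the log2 scale (adjusted p = 1.58e-05), a call lost with the mean of both probe sets (-0.30, adjusted p = 0.0688). The second probe set, 1443993_at, had group means of 17.5 to 27.7 and was not called.

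Zfp36 encodes tristetraprolin, the founding member of its family and an early response gene in many cells. Its signals were 1558, 823, 932, 859 and 799 with anti-IgD and PF-303, against 1305, 1142, 1106 and 1207 with anti-IgD and vehicle. With PBS they were 690.1, 593, 874, 579 and 600.1 with PF-303, against 934, 821, 1081 and 1943 with vehicle. The highest values, 1943 and 1558, came from the 2 arrays of high Gapdh 3'/5' ratio, and 4 of 5 PF-303 arrays were below all vehicle arrays of the same stimulus in each pair. Log2 fold changes for PF-303 were -0.30 ± 0.20 with anti-IgD (adjusted p = 0.282) and -0.76 ± 0.20 with PBS (adjusted p = 0.082 in limma). Without those 2 arrays they were -0.47 (adjusted p = 0.00296) and -0.50 (adjusted p = 0.0539), and with the 6 arrays of high spike-in signal left out -0.51 (adjusted p = 0.000116) and -0.47 (adjusted p = 0.0348). In PBS cells the value was also called without replicate 1 of anti-IgD with PF-303 (-0.76, adjusted p = 0.0331) or replicate 2 of PBS with vehicle (-0.91, adjusted p = 0.0424).

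Anti-IgD gave Zfp36 0.07 ± 0.21 with vehicle (adjusted p = 0.805) and 0.53 ± 0.19 with PF-303 (adjusted p = 0.0321). With PF-303 the call was lost when replicate 1 of anti-IgD with PF-303 was left out (0.36, adjusted p = 0.112), and also without replicate 2, 4 or 5 of PBS with PF-303 (0.49 to 0.50), with no filter (adjusted p = 0.0524) and with no variance trend (adjusted p = 0.051). With both arrays of high Gapdh ratio left out the value was 0.36 and was called (adjusted p = 0.0114). The response with PF-303 minus that with vehicle was 0.46 ± 0.28 on all arrays and 0.03 without those 2, neither called.

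**Figure D2:**
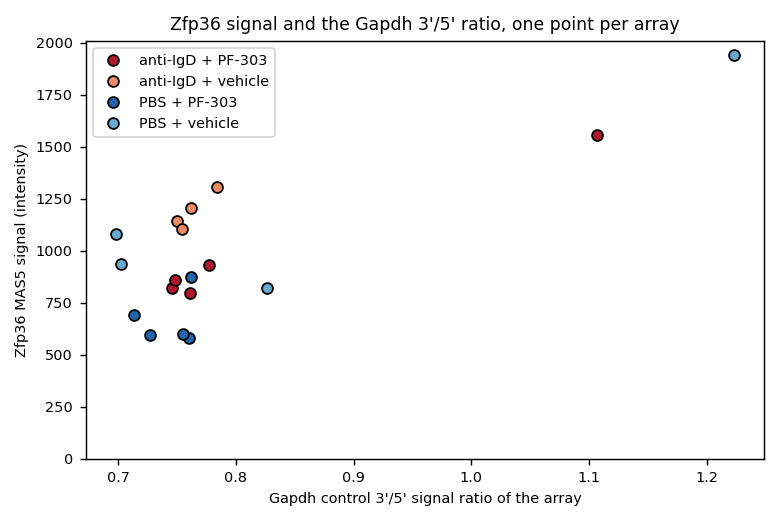
Zfp36 MAS5 signal (intensity, linear axis) against the 3'/5' signal ratio of the Gapdh control probe sets, 1 point per array, coloured by group. The 2 arrays with ratios of 1.11 and 1.22 hold the highest Zfp36 signals, 1558 and 1943, and the other 16 arrays lie between 579 and 1305.

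For Zfp36l1 and Btg1 the result depended on the probe set. The probe set of Zfp36l1 with the higher mean, 1450644_at, had signals of 4028, 3297, 4262, 3653 and 3109 with anti-IgD and PF-303, against 3927, 4165, 3021 and 4145 with anti-IgD and vehicle. They were 2693, 2707, 3521, 3469 and 2428 with PBS and PF-303, against 2704, 2709.9, 4147 and 3864 with PBS and vehicle. Groups overlapped in every pair, and no comparison was called, with log2 fold changes from -0.17 for PF-303 in PBS cells to 0.31 for anti-IgD in PF-303-treated mice. After quantile normalization 3 of them were called: anti-IgD with vehicle (0.35), anti-IgD with PF-303 (0.20) and PF-303 in stimulated cells (-0.31). With the spike-in signal as a covariate the same 3 were called (0.41, 0.27 and -0.28), and with the 6 arrays of high spike-in signal left out the first 2 (0.48 and 0.36).

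The other probe set of Zfp36l1, 1422528_a_at, which the platform assigns to the same target sequence, separated the groups. Its signals were 1418, 1275, 1344, 1449 and 1433 with anti-IgD and PF-303, against 2615, 2411, 2349.9 and 2665 with anti-IgD and vehicle. With PBS they were 1066, 954, 1094, 871 and 1049.6 with PF-303, against 1296, 1283, 1287 and 1810.3 with vehicle. Groups did not overlap in any of the 4 pairs. In the fit of 24947 probe sets, where 16.8% rose and 23.4% fell with anti-IgD in vehicle-treated mice, it rose by 0.83 ± 0.11 (adjusted p = 1.51e-06). PF-303 lowered it by 0.85 ± 0.10 on the log2 scale in stimulated cells (adjusted p = 2.43e-06) and by 0.48 ± 0.10 in PBS cells (adjusted p = 0.0261 in limma). The call in PBS cells was lost without the 2 arrays of high Gapdh ratio (-0.36, adjusted p = 0.0886), with the 6 of high spike-in signal left out (-0.33, adjusted p = 0.287), after shifting arrays to 1 median (-0.44, adjusted p = 0.0632), with no variance trend (adjusted p = 0.0518), and without replicate 2 or 4 of PBS with PF-303 or replicate 4 of PBS with vehicle (-0.46 to -0.36). The interaction was -0.37 ± 0.14 on all arrays (adjusted p = 0.124) and was called without the 2 arrays of high Gapdh ratio (-0.50, adjusted p = 0.0197).

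Btg1, which restrains proliferation and is a frequent target of mutation in human B cell lymphoma, has 3 probe sets. For 1426083_a_at the signals were 8793, 7122, 9870.2, 7146 and 6561 with anti-IgD and PF-303, against 6676, 6983, 4101 and 6956 with anti-IgD and vehicle. With PBS they were 6184, 5204, 8604, 8578 and 5443 with PF-303, against 5529.9, 5735, 6546 and 7821 with vehicle. These groups overlapped and no comparison was called, and the same held for 1437455_a_at, with group means of 3452 to 4188. The value for PF-303 in stimulated cells, 0.37 ± 0.19 (adjusted p = 0.147 in limma), was -0.09 after quantile normalization.

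The third probe set, 1442018_at, which the platform assigns to another target sequence, had signals of 303.4, 351, 226, 250.3 and 216 with anti-IgD and PF-303, against 1126, 714, 813 and 1003 with anti-IgD and vehicle. With PBS they were 193, 182, 220.2, 137 and 156 with PF-303, against 806, 782, 575 and 503 with vehicle. All PF-303 arrays were below all vehicle arrays, and the vehicle mean was 3.39 times the PF-303 mean with anti-IgD and 3.75 times with PBS. PF-303 lowered this probe set by 1.70 ± 0.16 on the log2 scale in stimulated cells (adjusted p = 1.64e-07) and by 1.81 ± 0.16 in PBS cells (adjusted p = 1.04e-06 in limma). These calls held without the 2 arrays of high Gapdh ratio (-1.75 and -1.93) and with the 6 of high spike-in signal left out (-1.69 and -2.07). Anti-IgD raised it by 0.45 ± 0.17 with vehicle (adjusted p = 0.0398), a call lost with either set of arrays left out (0.33 and 0.18) and without any 1 of replicates 1 or 5 of anti-IgD with vehicle or 3 or 4 of PBS with vehicle (0.33 to 0.40). With PF-303 the value was 0.55 ± 0.15 (adjusted p = 0.00918).

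The log2 ratio of one probe set to the other is given for these pairs as a description with no test, since they were picked because they were seen to differ. For Btg1 the ratio of 1442018_at to 1426083_a_at averaged -4.80 ± 0.38 with anti-IgD and PF-303, against -2.72 ± 0.40 with anti-IgD and vehicle, and -5.12 ± 0.42 with PBS and PF-303, against -3.25 ± 0.55 with PBS and vehicle (SD). For Zfp36l1 the ratio of 1422528_a_at to 1450644_at averaged -1.39 ± 0.20 with anti-IgD and PF-303, against -0.59 ± 0.18 with anti-IgD and vehicle, and -1.53 ± 0.30 with PBS and PF-303, against -1.22 ± 0.30 with PBS and vehicle (SD).

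**Figure D3:**
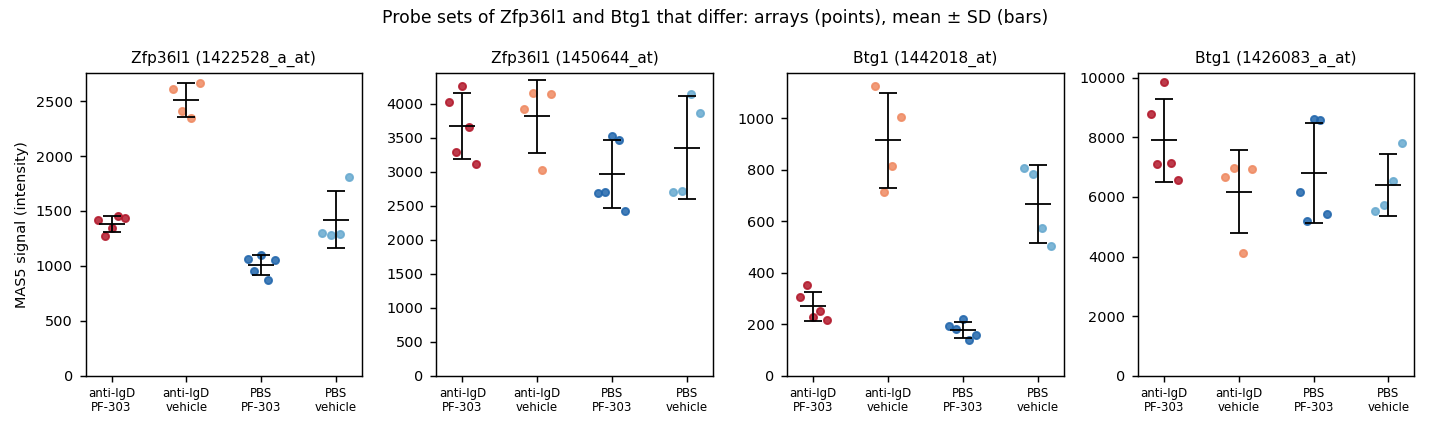
MAS5 signal (intensity, linear axes from 0) of 2 probe sets each of Zfp36l1 and Btg1, 1 point per array, with the mean ± SD of each group. For 1442018_at of Btg1 the PF-303 arrays lie at 137 to 351 and the vehicle arrays at 503 to 1126, while for 1426083_a_at all groups overlap.

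Over the 19 probe sets that passed the filter, anti-IgD after vehicle gave 6 that rose and 4 that fell, where 16.8% of all probe sets rose and 23.4% fell. Anti-IgD after PF-303 gave 6 and 4, where 11.6% of probe sets rose and 15.2% fell. With PF-303, 0 rose and 4 fell in stimulated cells (13.1% rose and 12.9% fell over all probe sets) and 0 rose and 3 fell in PBS cells (0.0401% and 0.525%). The 4 that fell in stimulated cells were those of Zc3h12a and Tob2 used for the genes, 1422528_a_at of Zfp36l1 and 1442018_at of Btg1. The 3 in PBS cells were the same without that of Tob2. At the gene level 2 of the 8 rose and 3 fell with anti-IgD in PF-303-treated mice, where 14.7% of all genes rose and 19.1% fell, and the ranges did not overlap for 2 of the 8, as for 24.8% of all genes. In the interaction 0 genes and 0 probe sets of the 8 were called by limma, where 6.66% of all genes had a higher and 3.12% a lower response with PF-303, as had 3.62% and 2.81% of probe sets. At an unadjusted p under 0.05 the interaction held Zc3h12a and 1422528_a_at of Zfp36l1, both negative. At that threshold 16.4% of all genes were positive and 7.73% negative, and 11.8% and 9.53% of all probe sets. Stimulated cells of PF-303-treated mice against PBS cells of vehicle-treated mice had 1 gene higher, Tob2 (0.39 ± 0.11), and 3 lower, Btg2 (-0.59 ± 0.10), Zfp36l2 (-0.56 ± 0.11) and Zc3h12a, where 12.0% of all genes were higher and 13.4% lower. Of these, Tob2 and Zfp36l2 lost the call with the 6 arrays of high spike-in signal left out (0.28 and -0.34), and Tob2 without the 2 of high Gapdh ratio (0.30). With the mean of the probe sets, Zfp36l2 (-0.28, adjusted p = 0.052) and Zc3h12a (-0.30) lost it.

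**Figure D4:**
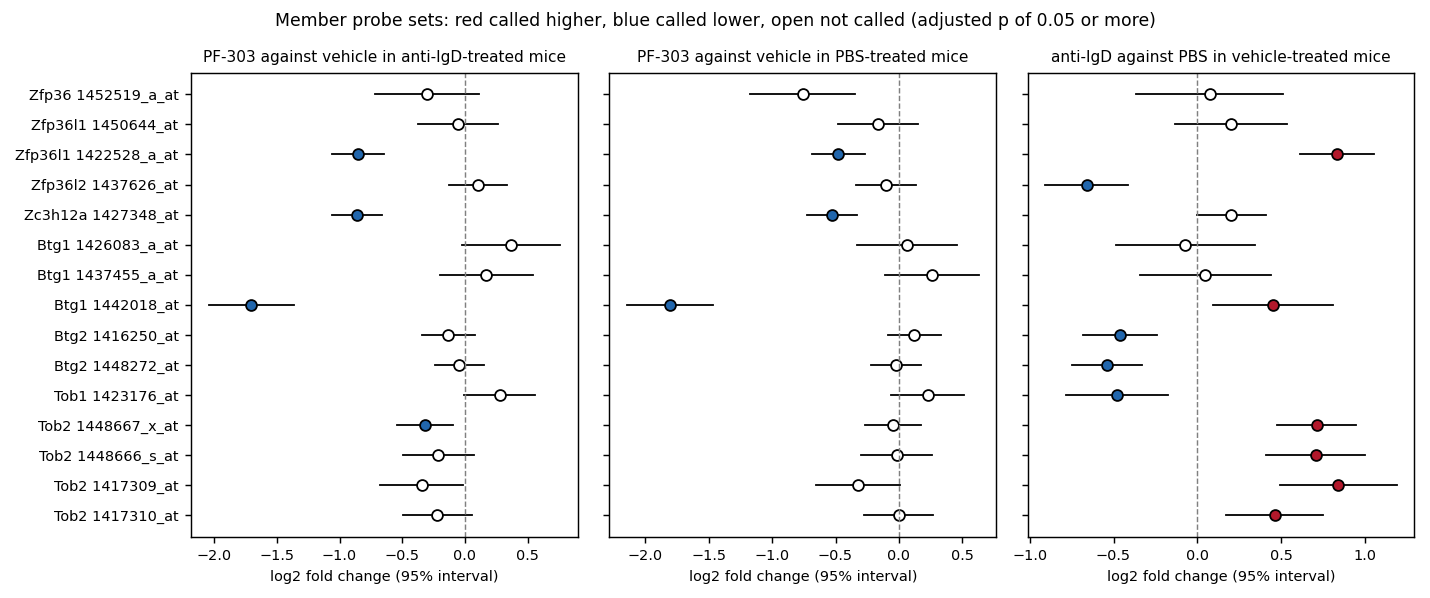
Log2 fold change with its 95% interval for the 15 probe sets of the 8 genes with a mean signal above 100, in 3 comparisons; red points passed the test as higher, blue as lower, and open points did not pass. PF-303 lowered 1442018_at of Btg1 by 1.70 and 1.81, while the other 2 probe sets of the gene did not pass in any panel.

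As a description with no test, the genes most like each member over the 18 arrays were found by Pearson r of log2 signals, which share stimulus, drug and scaling. They were Adpgk (0.92) and Txlna (0.91) for Zfp36, Ybx1 (0.93) and Npm1 (0.90) for Zfp36l1, Gimap5 (0.95) and Khnyn (0.93) for Zfp36l2, and Vav3 (0.96) and Nfat5 (0.92) for Zc3h12a. For the BTG and TOB genes they were Hnrnpf (0.98) and Eef1b2 (0.96) for Btg1, Kdm5b (0.95) and Ccser2 (0.95) for Btg2, Zfp874a (0.91) and Msantd4 (0.90) for Tob1, and Abi2 (0.94) and Tbx21 (0.93) for Tob2. The genes closest to 1442018_at of Btg1 were Zc3h12a (0.90) and Vav3 (0.90), and to 1422528_a_at of Zfp36l1 Pabpc4 (0.96) and Ccdc137 (0.96). Among the members themselves the highest r was 0.78, for Zfp36l2 with Btg2, and the lowest -0.85, for Zfp36l2 with Tob2.

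The decay machinery that these proteins recruit or join was followed by 4 lists, whose counts stand beside 17.4% of all genes higher and 30.6% lower with anti-IgD and vehicle, and 19.8% higher and 10.4% lower with PF-303 in stimulated cells. Among the CCR4-NOT subunits, other deadenylases and poly(A)-binding proteins, 5 of 15 tested genes rose and 5 fell with anti-IgD in vehicle-treated mice, with a median of -0.14 beside -0.13 for all genes. After shifting arrays to 1 median 5 rose and 3 fell. The deadenylase gene Cnot8, a partner of BTG and TOB proteins, rose by 0.87 ± 0.12 to a mean signal of 672 with anti-IgD, against 362 with PBS, and Pabpc4 rose by 0.74 ± 0.07. The deadenylase gene Parn fell by 0.53 ± 0.10 and the CCR4-NOT subunit gene Cnot3 by 0.50 ± 0.16. With PF-303 in stimulated cells 0 rose and 3 fell, Pabpc4 (-0.58 ± 0.07), Cnot6l (-0.37 ± 0.09) and Cnot7 (-0.37 ± 0.06), and with the arrays of high spike-in signal or of high Gapdh ratio left out 2 rose and 3 fell.

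Of 15 exosome and 3' to 5' decay genes 8 rose and 1 fell with anti-IgD and vehicle, with a median of 0.27. Dis3, the catalytic ribonuclease of the nuclear exosome, rose by 1.27 ± 0.11 to a mean of 525 with anti-IgD, against 211 with PBS. The core subunit genes Exosc1 (0.87 ± 0.08) and Exosc2 (0.83 ± 0.10) and Wdr61, a subunit of the SKI complex (0.69 ± 0.08), rose as well, and Dis3l fell by 0.42 ± 0.13. The Dis3l call ended under median shifting (-0.30), quantile normalization (-0.29) and removal of the high spike-in arrays (-0.31). With PF-303 in stimulated cells 0 rose and 5 fell, with a median of -0.16 beside 0.08 for all genes. They were Dis3 (-0.82 ± 0.10), Exosc1 (-0.53 ± 0.07), Exosc2 (-0.50 ± 0.09), Wdr61 (-0.33 ± 0.08) and the helicase gene Mtrex (-0.27 ± 0.10). In PF-303-treated mice anti-IgD still raised 6 of the 15 and lowered 0, where 14.7% of all genes rose and 19.1% fell. The median there was 0.17 beside -0.05 for all genes. In the interaction 0 of the 15 were called, where 6.66% of all genes were higher and 3.12% lower. Its median was -0.18 beside 0.07 for all genes. In PBS cells PF-303 left 0 genes called on each of the 4 lists.

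Of 15 decapping and 5' to 3' decay genes, 2 rose and 3 fell with anti-IgD and vehicle. This split depended on scaling, with 6 higher and 1 lower after shifting arrays to 1 median. Patl1, an enhancer of decapping, rose by 0.67 ± 0.08 and Xrn1, the cytoplasmic 5' to 3' exonuclease, fell by 0.38 ± 0.09. Edc3 rose with PF-303 in stimulated cells (0.40 ± 0.09) as the only gene called of the 15. Of 13 other binders of AU-rich and stem-loop elements, 4 rose and 2 fell with anti-IgD and vehicle, and 2 and 2 with the arrays of high spike-in signal left out. Zc3h12c, a relative of Zc3h12a, rose by 1.83 ± 0.15, with mean signals of 203 with anti-IgD and 45.5 with PBS. Hnrnpd, which encodes the AU-rich element binder AUF1, rose by 0.59 ± 0.08, while Arid5a, whose product stabilises mRNAs, fell by 0.69 ± 0.14 and Tia1 by 0.47 ± 0.09. With PF-303 in stimulated cells 2 rose and 4 fell, with Zc3h12c lower by 1.15 ± 0.14 and the roquin gene Rc3h1 by 0.43 ± 0.08. Under either other scaling 1 rose and 4 fell, and with the arrays of high spike-in signal left out 3 rose and 3 fell.

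**Figure D5:**
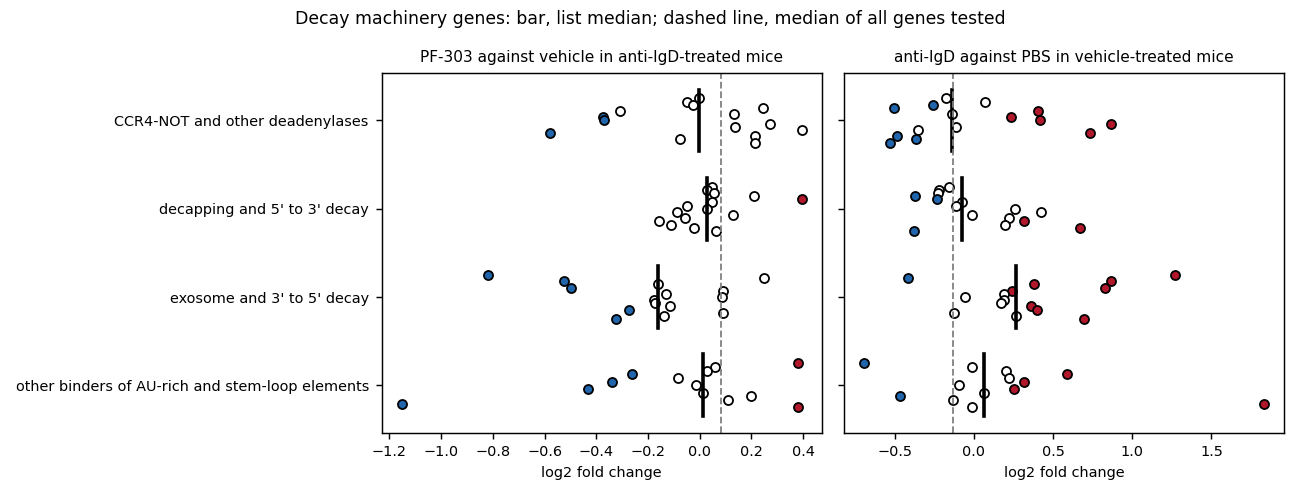
Log2 fold change of each tested gene on the 4 decay lists, in stimulated cells with PF-303 against vehicle and in vehicle-treated mice with anti-IgD against PBS; red points passed the test as higher, blue as lower and open points did not pass, with each list's median as a bar and that of all genes as a dashed line. The exosome list has its median at -0.16 with PF-303 and at 0.27 with anti-IgD.

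Transcripts known as targets of ZFP36 proteins or of Regnase-1 were listed for comparison. Some of them had group means near or below the filter level of 15.2. Il6 (17.9), Il10 (17.5) and Ier3 (27.3) had a group mean above that level only with anti-IgD and vehicle. The filter may have kept them through that group of 4 arrays, so the counts and medians below are partly set by it. With anti-IgD in vehicle-treated mice 8 of 20 rose and 3 fell, where 17.4% of all genes rose and 30.6% fell. The list median was 0.36 beside -0.13 for all genes. With PF-303 in stimulated cells 2 rose and 6 fell, where 19.8% of all genes rose and 10.4% fell. The median there was -0.38 beside 0.08 for all genes. With the arrays of high spike-in signal left out, 2 rose and 9 fell with PF-303 in stimulated cells. In PBS cells, where 0.0720% of all genes were higher and 0.675% lower, PF-303 left 0 higher and 3 lower: Myc (-0.96 ± 0.13), a driver of growth, Cdk6 (-0.45 ± 0.09), a cell cycle kinase, and the NF-kB subunit gene Rel (-0.39 ± 0.09). Rel lost the call under either other scaling (adjusted p = 0.076 and 0.0572 in limma) and without the arrays of high Gapdh ratio (adjusted p = 0.101). With those of high spike-in signal left out, both Rel (adjusted p = 0.116) and Cdk6 (adjusted p = 0.206) lost it. Other genes of the list gained a call there, so that the count stayed at 0 higher and 3 lower. Cdk6 had mean signals of 202 with anti-IgD and PF-303, 370 with anti-IgD and vehicle, 173 with PBS and PF-303 and 240.5 with PBS and vehicle. Of 13 genes known as p53 targets, as Btg2 is, 2 rose and 5 fell with anti-IgD in vehicle-treated mice, with a median of -0.08 beside -0.13 for all genes. That median was 0.03 under either other scaling, with 3 higher and 5 lower. The kinase gene Plk2 (3.35 ± 0.16) and the nuclease gene Aen (1.16 ± 0.09) rose, and Sesn1 (-1.49 ± 0.09) and Ccng1 (-0.87 ± 0.07) fell. With PF-303 in stimulated cells 4 rose and 1 fell, with Trp53inp1 (0.83 ± 0.08) and Ccng1 (0.55 ± 0.07) higher and Aen (-0.70 ± 0.08) lower.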

How the data were processed

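The authors produced the deposited values with MAS5, per the submitters' processing notes; its version and settings are not given in the sources used here. Each value is a MAS5 signal, an intensity on a linear scale per probe set, and the 18 deposited columns shared a 2%-trimmed mean of 99.96 to 99.97, so arrays had been scaled to a common level and differences in total RNA are removed. Per the labels, 150 ng of total RNA per sample was labelled by a GeneChip 3' IVT Express reaction, in which copying starts at the poly(A) tail. Of 45101 probe sets, 34945 had 1 symbol. Control probe sets were left out, and probe sets above a signal of 15.2, the median of all values, on at least 4 arrays were kept. Signals were taken as log2(signal + 16), and limma 3.58.1 with statmod 1.5.0 in R 4.3.3 (lmFit, eBayes with a mean-variance trend) was fitted to all 18 arrays with 1 mean per group, on 11104 genes and again on 24947 probe sets. Tests were two-sided with Benjamini-Hochberg adjustment per comparison. The fit was tested on simulated data. Precision is limited by the number of arrays.

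The members and the gene and marker lists were chosen with earlier results of these data known. All members are named. Of each list, up to 4 called genes of largest fold change in a comparison were named. Others were named only where a count was 5 or fewer or where the filter on low signal bore on them. The motifs were settled after the promoters were seen, the pairs of probe sets set side by side after their values were seen, the other probe sets followed in the alternatives by a mean signal above 100, and the figure's limit of signal 100 likewise. Alternatives covered the offset, filter, scaling, probe set summary, blocks, spike-in signal, variance trend and single arrays; leaving out the arrays of high Gapdh ratio was chosen after seeing the data. Replicate numbers recur between groups, but the labels do not say that a number pairs samples, so they were not taken to do so. Of 16 correlations of same-numbered deviations, 5 were above 0.1. Arrays of different numbers were not compared in this way, so these values cannot decide whether samples were paired.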

Additional observations from a re-analysis of the deposited data

Results flagged for a closer look

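Within groups of 4 or 5 arrays, 7 of 76 groups of member signals had a single array far from the others, beyond the 95% limit of Dixon's test. Chance gives about 1 in 20 such groups. Zfp36 had 1558 in replicate 1 of anti-IgD with PF-303, and Zfp36l1 1422528_a_at had 1810.3 in replicate 4 of PBS with vehicle, both the highest of their group and both on arrays of high Gapdh 3'/5' ratio and high spike-in signal. Btg1 had 4101 in replicate 4 of anti-IgD with vehicle, the lowest of its group. Tob2 had 917 in replicate 3 of PBS with PF-303, the highest, on an array of high spike-in signal. Tob2 1417309_at had 244 in replicate 5 of anti-IgD with vehicle, the lowest. Near the filter level, Zfp36l2 1451034_at had 14.8 in replicate 3 of PBS with vehicle and Tob2 1431776_at had 7.52 in replicate 4 of PBS with vehicle, each the lowest of its group.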

How the results depend on the processing

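Under 13 settings besides leaving out single arrays, 1074 of 1128 values of members and probe sets kept their side of the threshold, 22 lost a call, 31 gained one and 1 reversed. The reversal was Btg1 under PF-303 in stimulated cells, at -0.39 with the mean of its probe sets (adjusted p = 0.0262 in limma), a mean that includes 1442018_at. With that mean, members called numbered 4 for PF-303 in stimulated cells (2 on the highest probe set), 0 in PBS cells (1) and 2 for anti-IgD with PF-303 against PBS with vehicle (4). With the spike-in signal as a covariate, 4 members were called in stimulated cells and 2 in PBS cells, and probe sets numbered 8 in stimulated cells (4) and 1 in the interaction (0). With the 6 arrays of high spike-in signal left out, 2 members were called for anti-IgD with PF-303 against PBS with vehicle, and probe sets numbered 7 in stimulated cells, 1 in PBS cells (3) and 1 in the interaction. Without the arrays of high Gapdh ratio 1 probe set was called in the interaction. The causes were not tested. Leaving out 1 array gave 1 to 2 members for PF-303 in stimulated cells, 1 to 2 in PBS cells, and 0 to 1 probe sets in the interaction.

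Over all genes, PF-303 in PBS cells called 83, but 155 with the spike-in covariate, 46 with the 6 arrays of high spike-in signal left out, and 52, 42 and 49 without replicate 1 or 4 of PBS with PF-303 or replicate 1 of PBS with vehicle. The interaction called 1086 and 715 with those 6 arrays left out. Of the genes called, the share that was higher moved by over 10 points after shifting arrays to 1 median: 49.2% against 36.2% for anti-IgD with vehicle, 20.8% against 9.64% for PF-303 in PBS cells, 49.0% against 68.1% for the interaction, and 61.9% against 47.2% for anti-IgD with PF-303 against PBS with vehicle. Replicate number as a block left the members called at 4, 2, 1, 5, 0 and 4 over the 6 comparisons, equal to the counts without it, and since the samples share only a number it was not used.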
